A study of Homo sapiens with 108 samples.

Results

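HMV-I is labelled as 1 of 6 human melanoma cell lines profiled on single-colour whole-genome CodeLink arrays, and its unirradiated cells are set here against the unirradiated cells of the other lines. The study exposed each line to carbon ions or X-rays at 2 Gy, collected RNA at 1 h and 3 h, and kept a separate set of unirradiated controls for each beam. HMV-I contributed 6 of the 36 unirradiated arrays of the series, which holds a further 72 irradiated arrays: 3 came from the control set for carbon ions and 3 from the control set for X-rays. The other 30 unirradiated arrays came from HMV-II, 92-1, C32TG, Colo679 and MeWo, with 3 arrays per line and set. Members were taken from the labels alone: the HMV-I group mean minus the mean of the 5 other group means, on the log2 scale, computed within the C-ions controls and again within the X-rays controls. All groups had a dose of 0 Gy, and the labels give no time for them. Nothing in the labels ties the 3 arrays of a group to independent cultures, so p-values at the level of arrays cover the spread between arrays only, and the small number of arrays limits the precision. Each line is a single cell population, so a statement about HMV-I against melanoma lines in general rests on 1 line against 5.

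Melanocytes make pigment in melanosomes, and most melanoma lines keep part of that programme. The transcription factor MITF switches on genes for the pigment enzymes (TYR, TYRP1), for melanosome structure (PMEL, MLANA, GPNMB) and for melanosome traffic (RAB38). Melanoma cells that lose this programme are known as dedifferentiated and often gain receptors such as AXL and EGFR. Keratins 8, 18, 7 and 19 and the adhesion protein EPCAM are the classic proteins of simple epithelia.

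Levels are quantile-normalized log2 intensities, so a level of 0 is not a deposited value of 1 on every array. A level under -0.43, the 40th percentile of the line means, is called dim below. The deposited table gives no background flag per spot, so a fold change against a dim level is a ratio of normalized values and not a measured bound. A gene was called when its contrast passed limma with a Benjamini-Hochberg adjusted p under 0.05 in both control sets with the same sign. A gene was said to lie beyond every other line when, in addition, the HMV-I group mean exceeded or fell short of each of the 5 other group means in both sets and lay at least 2-fold from their mean.

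HMV-I differed from the other lines at most of the genes measured. Of 14834 genes tested, 10981 (74.0%) passed in the C-ions controls and 11411 (76.9%) in the X-rays controls, and 5244 (35.4%) were higher and 3319 (22.4%) lower in HMV-I in both sets. The split between higher and lower depended on the scaling: with median centring 3800 genes were higher and 4102 lower, and with the values as deposited 2583 were higher and 5053 lower. The median difference of all genes was 0.15 with quantile normalization, 0.03 with median centring and -0.12 as deposited, so small differences are read below against that shift. HMV-I arrays also had the fewest missing values, 1034 to 1379 of 54359 probes against 1854 to 5558 on the other arrays, whose part in the split was not tested. Beyond every other line lay 887 genes above (5.98%) and 696 genes below (4.69%). Of the 887, 71 (8%, beside 2.08% of all genes) were dim in all 5 other lines and passed the level filter through HMV-I alone. In the stricter fit with 1 value per line, in which the spread among the 5 other lines is the error, 138 genes were higher (0.930%) and 52 lower (0.351%) in both sets. That count moved with the choice of lines and probes: by probes it was 307, against 194 without Colo679 and 197 among probes valued on every unirradiated array. Of the 138 higher genes, 60 were dim in all 5 other lines, where the error is the spread of values near the floor and a pass adds nothing to the levels. Counts for gene lists below are to be read beside the shares over all genes, 35.4% higher and 22.4% lower. Counts of list members beyond every other line are to be read beside 5.98% above and 4.69% below.

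**Figure D1:**
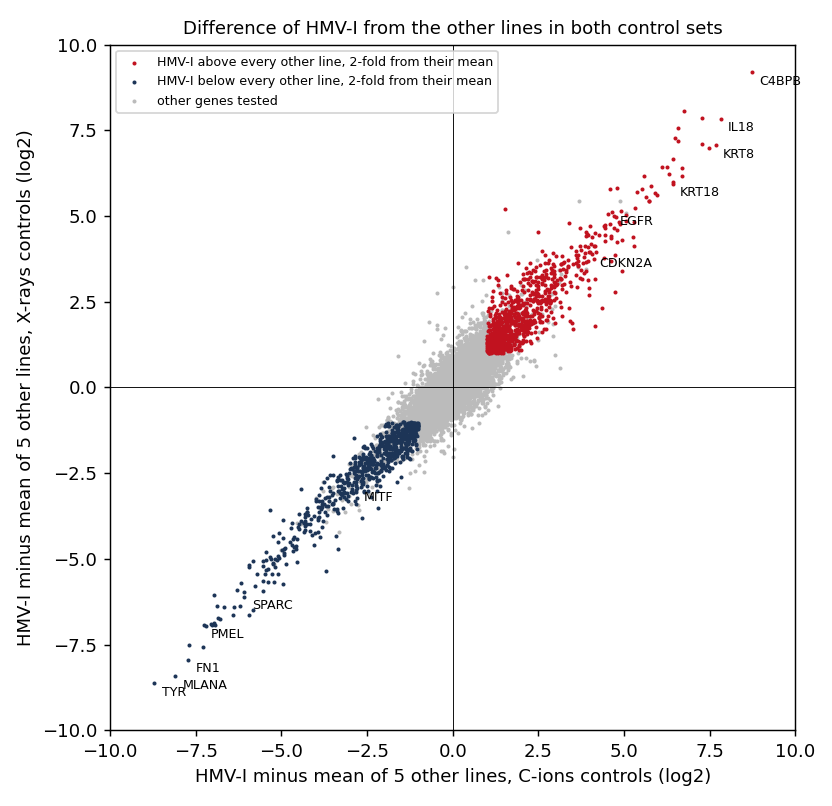
Each point is 1 gene, placed by its difference between HMV-I and the mean of the other 5 lines in the C-ions controls (x axis, log2) and in the X-rays controls (y axis, log2). Red marks the 887 genes with HMV-I above every other line, blue the 696 genes with HMV-I below every other line and grey the other genes tested, and the genes with the widest gaps in both directions lie along the diagonal.

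HMV-I stood farther from the rest than any of the other 5 lines did by the same count. Without asking for a call, 1584 genes (10.7%) placed HMV-I beyond all other lines by at least 2-fold in both sets, against 1008 for 92-1, 904 for C32TG, 684 for HMV-II, 681 for MeWo and 586 for Colo679. Across probes, HMV-I correlated with the other lines at r = 0.868 to 0.896 in the C-ions controls, against 0.892 to 0.937 among the other lines. In the X-rays controls the range was 0.876 to 0.892 for HMV-I, against 0.908 to 0.939 among the others. HMV-I was no closer to HMV-II (r = 0.889 in the C-ions controls), with which it shares a name, than to 92-1 (r = 0.896). These correlations are across probes, which are not independent replicates, and describe the libraries only.

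**Figure D2:**
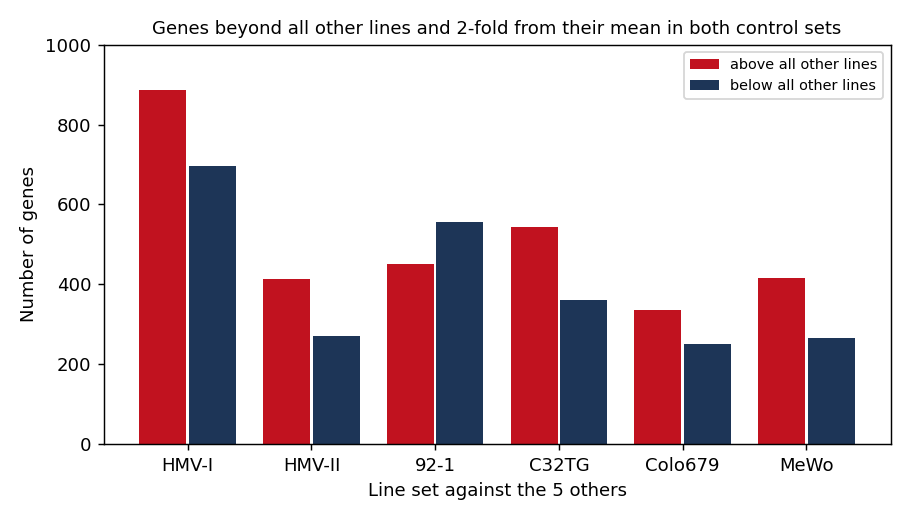
Bars give, for each line in turn, the number of genes at least 2-fold above (red) or below (blue) the mean of the other 5 lines and beyond each of them in both control sets. HMV-I has the tallest pair of bars, and 92-1 comes next.

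The direction of these genes was the same on arrays that took no part in choosing them. After 2 Gy, HMV-I differed from the irradiated cells of the other lines in the same direction at 1578 of 1578 measured genes 1 h after carbon ions and at 1581 of 1581 genes 1 h after X-rays. At 3 h the counts were 1577 of 1577 genes after carbon ions and 1581 of 1581 genes after X-rays. The difference was at least 2-fold at 1524, 1539, 1506 and 1513 of these genes in the same order. The irradiated arrays hold the same 6 lines, so they repeat the measurement and not the choice of lines. The genes were chosen for wide gaps in these lines, so the counts are a description and not a test.

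The melanocyte genes gave the lowest levels relative to the other lines. The list held 35 genes, of which 30 had a probe named here and 29 passed the filter on level and missing values. Of these 29 melanocyte lineage and pigmentation genes, 26 were lower in HMV-I in both sets (89.7%, beside 22.4% of all genes), 13 of them below every other line, and the list median was -2.70 beside 0.15 for all genes. The mean level of the list was 0.60 to 0.68 over the HMV-I arrays, against 2.76 to 4.29 with a median of 3.84 over the other arrays. In HMV-I 10 of the 29 genes were dim, and 0 of the 29 were dim in all 5 other lines. In bulk RNA, fewer cells with a transcript and less transcript per cell cannot be told apart. The labels call HMV-I a melanoma line. Of the lineage transcripts, TYR, TYRP1 and MLANA were dim in it, whereas MITF and PMEL were lower than elsewhere but not dim. Of the simple-epithelium transcripts, KRT8, KRT18, KRT7, KRT19 and EPCAM lay above every other line. Others of that list did not: ESRP1 was lower in HMV-I, and CLDN3 and ST14 failed the filter with dim medians there. The identity of the cells was not tested, and HMV-I is called by its name alone here.

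TYR, tyrosinase, the first enzyme of melanin synthesis, showed the widest gap of any gene that was lower in HMV-I. Its levels were -0.31, -0.47 and -0.48 on the HMV-I C-ions arrays and -0.72, -0.44 and -0.50 on the HMV-I X-rays arrays, against a lowest value of 6.86, a median of 8.26 and a highest value of 9.22 on the other 30 arrays. The groups did not come near each other. The difference was -8.70 ± 0.07 (SE) in the C-ions controls and -8.62 ± 0.07 (SE) in the X-rays controls, a 394-fold gap at the smaller of them (limma, adjusted p = 1.27e-41 and 1.71e-41). TYR also passed with 1 value per line (adjusted p = 0.00329 and 0.000877).

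MLANA, the melanosome protein Melan-A, had levels of -1.03, -0.93 and -0.58 in the HMV-I C-ions controls and -1.19, -1.34 and -1.10 in the HMV-I X-rays controls. On the other arrays it ran from 0.42 to 9.28 with a median of 8.82, and the low end was C32TG, with a mean of 0.53. The differences were -8.10 and -8.42, and with 1 value per line MLANA did not pass (adjusted p = 0.53 and 0.358). PMEL, the fibre protein of the melanosome, was not dim in HMV-I and read 1.29 to 1.68 there, against 5.24 to 9.48 elsewhere, and C32TG again had the lowest mean of the other lines, 5.59.

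TYR and a pair of further pigment genes, TYRP1 and GPNMB, are shown with the sequence before their start sites. MITF is known to bind the letters CATGTG in pigment-gene promoters, and all 3 genes lay below every other line. They are examples that hold the motif, taken from the 4 of 10 promoters of melanocyte genes below every other line that held it. Promoters without it are not shown. TYRP1, the tyrosinase-related enzyme, had a mean of -1.22 ± 0.13 (SD, n = 6 arrays) in HMV-I, against line means of 1.37 in C32TG to 8.11 in 92-1. GPNMB, a melanosome glycoprotein, had levels of -0.37, -0.32 and -0.32 in the HMV-I C-ions controls and 0.31, 0.35 and 0.23 in the HMV-I X-rays controls, against 4.86 to 6.05 on the other arrays. The sequences are RefSeq's (GRCh38.p14), 250 bases before the gene's start on the plus strand, 5′ to 3′, at chr11:89177625-89177874 for TYR, chr9:12693135-12693384 for TYRP1 and chr7:23246525-23246774 for GPNMB. Capitals mark CATGTG or CACATG, which is the same motif read on the other strand.
TYR: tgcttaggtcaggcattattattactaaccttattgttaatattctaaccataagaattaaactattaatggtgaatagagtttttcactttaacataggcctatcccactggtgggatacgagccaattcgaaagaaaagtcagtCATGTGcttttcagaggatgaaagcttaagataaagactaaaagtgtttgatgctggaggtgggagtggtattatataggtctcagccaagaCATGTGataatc
TYRP1: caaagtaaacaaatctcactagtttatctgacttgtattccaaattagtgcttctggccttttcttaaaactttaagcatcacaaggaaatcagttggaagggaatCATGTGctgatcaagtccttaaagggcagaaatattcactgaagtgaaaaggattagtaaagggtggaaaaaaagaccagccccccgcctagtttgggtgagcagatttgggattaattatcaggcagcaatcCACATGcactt
GPNMB: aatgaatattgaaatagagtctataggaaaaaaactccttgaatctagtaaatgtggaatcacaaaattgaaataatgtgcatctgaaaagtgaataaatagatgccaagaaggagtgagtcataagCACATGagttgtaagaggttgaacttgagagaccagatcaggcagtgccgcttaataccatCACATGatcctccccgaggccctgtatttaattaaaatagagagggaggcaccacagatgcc

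In TYR the first base of the motif lies 104 and 12 bases before the start, in TYRP1 144 and 11 bases before it, and in GPNMB 123 and 62 bases before it. Of the 13 melanocyte genes below every other line, 10 had an entry in the promoter table, and 4 of these (40%) held CATGTG or CACATG, against 771 of 11895 genes tested with an entry (6.48%). The share was 9.06% (48 of 530) over all genes below every other line, 4.55% (32 of 703) over all genes above and 9.54% over all promoters with an entry. Melanocyte genes that were not below every other line were not counted, so the 40% cannot be tied to lower levels in HMV-I. CACGTG, a palindromic form of the same box that was searched apart, was in 0 of the 10 melanocyte promoters and in 8.26% of those of all genes tested. A match is a description of these letters and no measurement of binding.

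MITF itself was lower in HMV-I but far from dim. Its levels were 4.44, 4.51 and 4.53 on the HMV-I C-ions arrays and 4.11, 4.03 and 4.15 on the HMV-I X-rays arrays, against 6.60 to 8.15 with a median of 7.09 on the other arrays. The difference of -2.80 and -2.94 was a 6.98-fold gap at the smaller, and the second MITF probe gave -2.63 and -2.93. With 1 value per line MITF passed in the X-rays controls alone (adjusted p = 0.00732, and 0.0547 in the C-ions controls).

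Other genes of the lineage were lower in HMV-I by similar or smaller amounts. CAPN3, a calpain protease with a melanocyte form, differed by -6.93 in both sets, and RAB38, the small GTPase that carries pigment enzymes to melanosomes, by -6.19 and -6.39. EDNRB, the endothelin receptor that melanoblasts need, averaged -0.70 ± 0.09 (SD, n = 6 arrays) in HMV-I, against 4.87 ± 0.26 (SD, n = 5 lines) elsewhere, and was among the genes that passed with 1 value per line (adjusted p = 0.0018 and 0.00163). CITED1, a transcriptional cofactor, SLC45A2, a melanosome transporter, and CDH19, a cadherin of the neural crest lineage, differed by -3.06, -2.51 and -1.93 at the smaller of both sets.

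A few members of the list did not follow it, or did so with limits, as LEF1 and SOX10 did, which are among the 26 counted as lower. LEF1, a transcription factor of the Wnt pathway, differed by -4.56 and -4.71 at its brightest probe and by 0.51 and 0.45 at another. The other probe was called too, with HMV-I above each other line though by less than 2-fold from their mean, so the LEF1 probes disagree in sign. SOX10, a master factor of the neural crest, was read at low levels in all lines, with a mean of -0.66 in HMV-I against line means of -0.41 to 0.80, and its difference of -1.37 and -0.34 was small in the X-rays controls. KIT, the receptor for stem cell factor, differed by -0.37 and 0.29 and TFAP2A, a neural crest factor, by -0.16 and -0.27, and neither passed in both sets with the same sign. GAPDHS, a glycolytic enzyme, was the single list member called higher, by 0.26 in both sets. That call was lost with median centring, and the sets had opposite signs with the values as deposited.

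**Figure D3:**
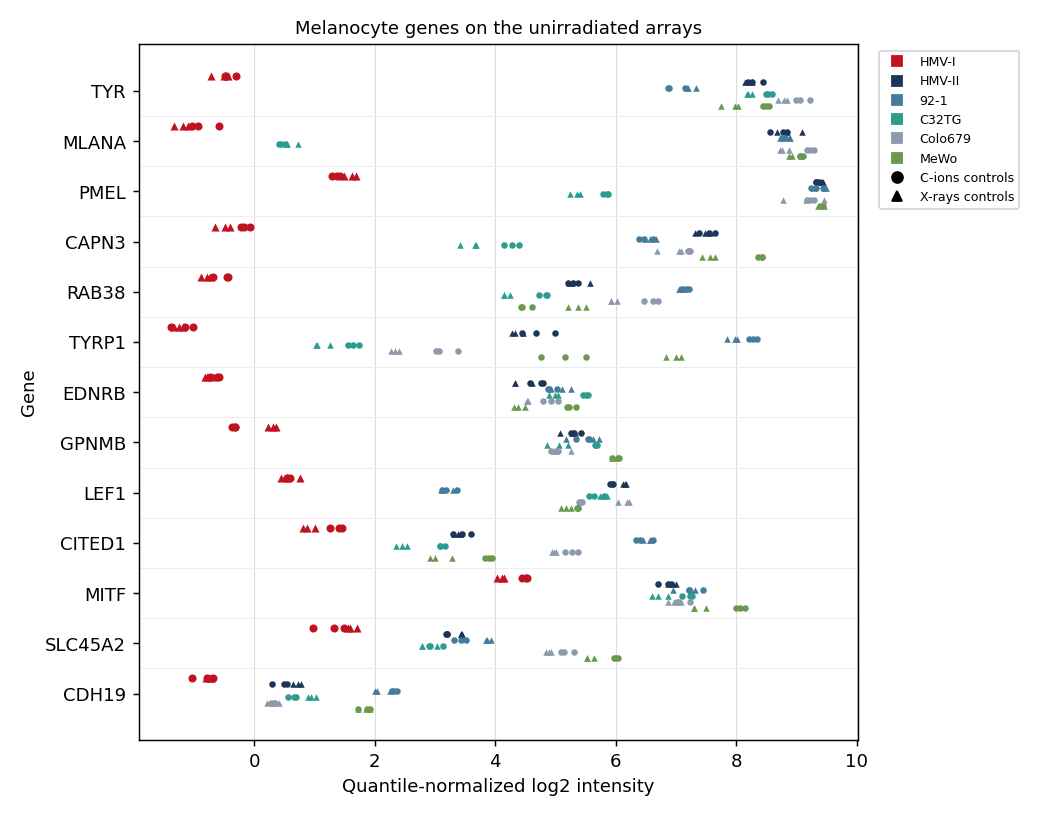
Levels of the 13 melanocyte genes below every other line, as quantile-normalized log2 intensity, on each unirradiated array (circles for C-ions controls, triangles for X-rays controls, 1 colour per line with HMV-I in red). HMV-I lies left of all other arrays at every gene shown, with MITF at 4.03 to 4.53 as the brightest in HMV-I and C32TG as the nearest line at MLANA, PMEL and CAPN3.

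Outside the melanocyte list, the widest deficits of HMV-I were at genes of varied roles, secreted and lysosomal proteins among them. FN1, fibronectin, the main adhesive glycoprotein of the matrix, read -0.91, -1.16 and -0.81 in the HMV-I C-ions controls and -1.15, -1.21 and -0.99 in the HMV-I X-rays controls. On the other arrays FN1 ran from 3.71 to 8.76 with a median of 8.19, and the gap was 210-fold at the smaller difference, -7.71 (limma, adjusted p = 1e-39). SPARC, a secreted collagen-binding protein that melanomas typically make in quantity, averaged 0.84 ± 0.18 (SD, n = 6 arrays) in HMV-I, against 6.93 ± 1.07 (SD, n = 5 lines) in the other lines. SRPX, a sushi-repeat protein of the cell surface, and CTHRC1, a secreted protein linked to collagen, differed by -7.52 and -6.39 at the smaller of both sets.

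RRAGD, a Rag GTPase that signals amino acid supply at the lysosome, averaged -1.34 ± 0.17 (SD, n = 6 arrays) in HMV-I, against 5.75 ± 0.59 (SD, n = 5 lines). CTSH, the lysosomal protease cathepsin H, and LAPTM4B, a lysosomal membrane protein, differed by -6.90 and -6.76 at the smaller. The rest of the 15 widest deficits comprised FABP5, a fatty acid carrier (-7.27), CYP27A1, the sterol 27-hydroxylase (-6.92), FAM111A, a protease active at replication forks (-6.87), FMN1, a formin (-6.72), and CEP15, a centrosomal protein (-6.41). FMN1 had 5 kept probes: 3 were lower in HMV-I by at least 1.16 in both sets, while another read 0.13 and 0.44 and the fifth did not keep a sign. RRAGD, SRPX, CTSH, LAPTM4B, FABP5, CYP27A1, FMN1 and CEP15 passed with 1 value per line, whereas FN1, SPARC, FAM111A and CTHRC1 did not in both sets.

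The simple-epithelium genes gave the highest list median, over the 21 tested of 27 with a probe named here. Of the 21, 17 were higher (81%, beside 35.4% of all genes) and 1 lower in HMV-I in both sets, 12 of them above every other line, with a list median of 1.57 (1.40 with median centring and 1.26 as deposited, with 14 and 13 members higher). The mean level of the list was 2.75 to 2.92 over the HMV-I arrays, against 0.56 to 1.37 with a median of 0.95 over the other arrays. None of the 21 was dim in HMV-I, and 1 of them, KRT19, was dim in all 5 other lines. The list was not high throughout: 6 further members, CLDN3, OCLN, OVOL1, PRSS8, RAB25 and ST14, failed the filter on level or missing values, with probe medians of -1.21 to -0.38 in HMV-I. OCLN, the tight junction protein occludin, reached 0.31 on another line's array at 1 of its probes.

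KRT8, keratin 8, had levels of 7.12, 7.05 and 7.41 on the HMV-I C-ions arrays and 6.49, 6.58 and 6.45 on the HMV-I X-rays arrays, against -1.48 to 0.30 with a median of -0.66 elsewhere. The gap was 133-fold at the smaller difference, 7.06 ± 0.11 (SE), and passed with 1 value per line (adjusted p = 0.000846 and 0.000993). KRT18, its partner keratin, read 9.0, 9.26 and 9.29 in the HMV-I C-ions controls and 8.87, 8.98 and 9.15 in the HMV-I X-rays controls, among the brightest of the genes named here. The other lines were spread widely at KRT18, with means of 5.94 in Colo679, 5.72 in HMV-II, 1.93 in 92-1, 1.08 in C32TG and -0.14 in MeWo, so that 2 other lines also carried it and the fit with 1 value per line did not pass (adjusted p = 0.494 and 0.373).

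KRT7, keratin 7, averaged 3.85 ± 0.13 (SD, n = 6 arrays) in HMV-I, against -0.11 ± 0.09 (SD, n = 5 lines), and EPCAM averaged 3.82 ± 0.21 (SD, n = 6 arrays) in HMV-I, against 0.39 ± 0.31 (SD, n = 5 lines). Neither overlapped any other array, and both passed with 1 value per line. KRT19, keratin 19, averaged 1.49 ± 0.59 (SD, n = 6 arrays) in HMV-I against -1.36 ± 0.05 (SD, n = 5 lines), and passed the level filter through HMV-I alone. The junction and polarity genes followed at lower levels: PKP3 (plakophilin 3), DSP (desmoplakin), MUC1 (a membrane mucin), AP1M2 (an epithelial adaptor subunit) and SPINT2 (a protease inhibitor) differed by 2.32, 1.61, 2.06, 1.47 and 1.5 at the smaller of both sets. ELF3, an epithelial transcription factor, differed by 1.25 and 2.16. ESRP2, an epithelial splicing regulator, differed by 1.63 and 1.30 at its brightest probe and by 0.04 and 0.17 at its other probe, which was not called, and ESRP1, its paralog, was the member that was lower, by -0.32 and -0.60.

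**Figure D4:**
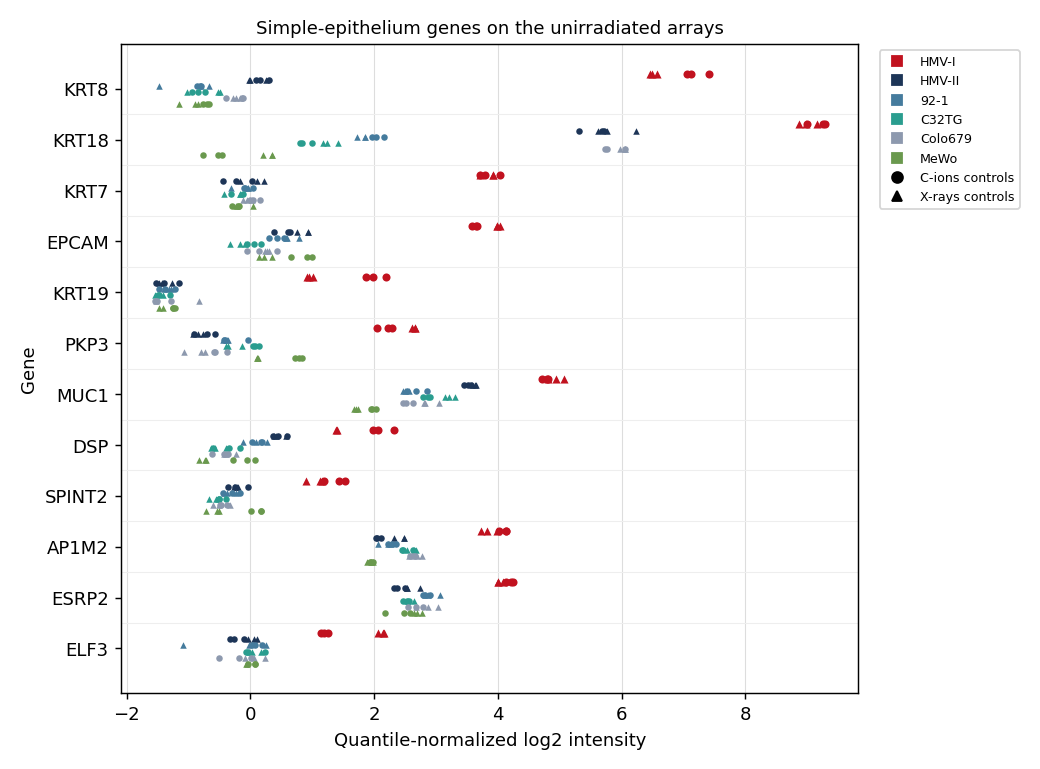
Levels of the 12 simple-epithelium genes above every other line, as quantile-normalized log2 intensity, on each unirradiated array (circles for C-ions controls, triangles for X-rays controls, 1 colour per line with HMV-I in red). HMV-I lies right of all other arrays at every gene shown, by the widest margin at KRT8, while HMV-II and Colo679 also read well above 5 at KRT18.

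Squamous and keratinocyte genes had a smaller list median. Of 14 tested, 9 were higher (64.3%), 2 lower (14.3%) and 2 above every other line, with a median of 0.39 (0.26 with median centring and 0.11 as deposited, with 7 and 5 members higher). SFN, the epithelial protein stratifin, averaged 2.97 ± 0.46 (SD, n = 6 arrays) in HMV-I, against -1.13 ± 0.06 (SD, n = 5 lines). It was dim in all 5 other lines and passed the level filter through HMV-I alone. ITGB4, the integrin of hemidesmosomes, averaged 3.32 ± 0.30 (SD, n = 6 arrays) against 1.52 ± 0.28 (SD, n = 5 lines). KRT14, the basal keratin, was dim in HMV-I at -0.62, and ITGA6, the integrin chain that pairs with ITGB4, was lower there, at 4.48 against line means of 2.57 to 6.96. KRT5, KRT1, KRT10, IVL and DSG3, keratinocyte genes that failed the filter, had medians of -1.54 to -1.04 in HMV-I. Lists of other cell types that a culture might hold were also counted. Of 10 leukocyte genes 3 were higher (30%) and 1 lower (10%), with a median of 0.05 that turned to -0.02 with median centring. Of 6 endothelial genes 2 were higher (33.3%) and 1 lower (16.7%), with a median of 0.26, and over all genes the shares were 35.4% and 22.4%. The mean level over the leukocyte list was 1.00 to 1.21 in HMV-I, against 0.65 to 1.36 on the other arrays. ESAM, an adhesion protein of endothelial and other junctions, was the endothelial gene above every other line, at 2.83 in HMV-I against 0.60 in 92-1, the nearest line by its mean, and differed from the mean of the lines by 2.67 and 3.14.

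The 15 genes with the widest gaps above the other lines were a mixed group, led by secreted immune proteins. C4BPB, the beta chain of a complement regulator, read 7.63, 7.59 and 7.76 in the HMV-I C-ions controls and 8.14, 8.26 and 8.07 in the HMV-I X-rays controls, against -1.60 to -0.70 on the other arrays. It was dim in each of the 5 other lines, and the ratio was 428 at the smaller difference, 8.74 ± 0.10 (SE). IL18, a cytokine that epithelia and macrophages make, read 6.66 to 6.87 in HMV-I against -1.67 to -0.57, and IL32, another cytokine, averaged 5.66 ± 0.23 (SD, n = 6 arrays) in HMV-I, against -0.61 ± 0.08 (SD, n = 5 lines).

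Others of the 15 were enzymes, carriers and matrix proteins. ASS1, the arginine-making argininosuccinate synthase, read 5.27, 5.57 and 5.80 in the HMV-I C-ions controls and 6.83, 6.83 and 6.86 in the HMV-I X-rays controls, against -1.64 to -0.40 elsewhere, so that the HMV-I sets themselves stood apart. GDA, guanine deaminase, averaged 6.23 ± 0.27 in HMV-I against -0.99 ± 0.08 (SD, n = 6 arrays and n = 5 lines). FOLR1, the folate receptor alpha, read 6.48 to 7.04 in HMV-I against -0.12 to 1.01. NID2, the basement membrane protein nidogen 2, differed by 7.28 at the smaller, S100P, a calcium-binding protein, by 6.57, and TCIM, a small regulator of Wnt and immune signals, by 6.58.

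FOXC2, a forkhead factor of mesenchyme and lymphatic vessels, CRIP1, a LIM-domain protein, and TOGARAM2, a protein with microtubule-binding TOG domains, differed by 6.50, 6.42 and 6.41 at the smaller of both sets. The second CRIP1 probe gave 0.41 in both sets, the same direction at a much smaller size. For RASIP1, a Ras-binding protein of blood vessels, and BST2, the virus-tethering protein, 1 other line carried the transcript too: RASIP1 averaged 8.06 in HMV-I against 4.60 in MeWo and at most 0.43 in the rest, and BST2 averaged 6.37 in HMV-I against 3.98 in Colo679 and at most -0.77 in the rest. These 2 genes did not pass with 1 value per line. Of the 15, 8 were dim in all 5 other lines, so that their ratios rest on values near the floor.

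Of 19 genes of the dedifferentiated or invasive melanoma state that were tested, 12 were higher (63.2%, beside 35.4% of all genes), 2 lower (10.5%, beside 22.4%) and 5 above every other line, with a median of 0.85 (0.62 with median centring and 0.47 as deposited, with 12 and 11 members higher). None of the 19 passed with 1 value per line in both sets. Of 3 members that failed the filter, ZEB1, a transcription factor that represses epithelial genes, had a median of 3.43 in HMV-I against 0.03 over the 22 other arrays that gave a value, and MMP1, a collagenase, had -1.02 against 1.58. The remaining one, TGFBI, was dim or nearly so on all arrays. EGFR, the epidermal growth factor receptor, read 4.40, 4.50 and 4.47 in the HMV-I C-ions controls and 4.75, 4.88 and 4.57 in the HMV-I X-rays controls, against -1.59 to 1.69 with a median of -1.01 elsewhere. The other lines differed from each other too, with 1.52 in HMV-II and 0.68 in MeWo against -1.14 to -1.29 in the rest, and a second, dim EGFR probe gave 0.08 and 0.48.

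PLAUR, the urokinase receptor, averaged 5.42 ± 0.17 (SD, n = 6 arrays) in HMV-I, and MeWo came close with 4.69, while HMV-II read -1.43. CCN1, a matricellular protein, WNT5A, a non-canonical Wnt ligand, and the cytokine IL6 differed by 2.79, 2.39 and 2.22 at the smaller of both sets. AXL, the receptor tyrosine kinase that gives this state its best-known marker, averaged 2.69 ± 0.24 (SD, n = 6 arrays) in HMV-I against 1.49 ± 0.09 (SD, n = 5 lines). SOX9, a neural crest factor, was below every other line, at 0.66 against line means of 1.93 to 7.02, and TNC, the matrix protein tenascin C, was lower than the mean of the others by 2.91 and 2.25, though 92-1 was lower still with 0.21.

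Receptor tyrosine kinases and their ligands were higher at 17 (60.7%) and lower at 6 (21.4%) of 28 genes, beside 35.4% and 22.4% of all genes, with 7 above every other line and a median of 0.55 (0.33 with median centring and 0.18 as deposited, with 15 and 12 members higher). The ligands of the EGFR family included EREG, epiregulin, at 3.40 ± 0.18 (SD, n = 6 arrays) in HMV-I against -1.15 ± 0.11 (SD, n = 5 lines), dim in all 5. NRG1, neuregulin 1, differed by 2.69 and 3.64, whereas HBEGF, the heparin-binding ligand of EGFR, was below every other line, at 0.03 against line means of 0.96 to 2.63. FGF2, basic fibroblast growth factor, read 4.34, 4.36 and 4.40 in the HMV-I C-ions controls and 5.43, 5.50 and 5.43 in the HMV-I X-rays controls, against -0.31 to 1.93 elsewhere. INSR, the insulin receptor, PDGFA, a platelet-derived growth factor chain, and VEGFA, the vascular growth factor, were also above every other line, with differences from the mean of the lines of 1.95, 1.66 and 1.42 at the smaller. PDGFA was near another line, at 2.81 against 2.33 in MeWo.

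Of 22 integrin, laminin and basement membrane genes, 10 were higher (45.5%) and 8 lower (36.4%), beside 35.4% and 22.4% of all genes, with 4 above and 3 below every other line and a median of 0.13 that turned to -0.10 with the values as deposited. LAMA5, the laminin chain of epithelial basement membranes, averaged 7.81 ± 0.11 (SD, n = 6 arrays) in HMV-I against line means of 2.41 to 5.92, while LAMA4, the laminin chain of vessels, was dim in HMV-I at -1.17 against -0.36 to 4.86, and LAMA1 was lower by 2.86 and 3.33. COL4A6, a basement membrane collagen chain, averaged 4.09 ± 0.10 (SD, n = 6 arrays) against -0.73 ± 0.36 (SD, n = 5 lines) and passed with 1 value per line. ITGA1, a collagen-binding integrin chain, was above every other line, at 4.76 against line means of -1.05 to 2.86. ITGB3, the chain of the vitronectin receptor, was below every other line, but 92-1 came close, with -0.03 against -0.19 in HMV-I. Fibroblast and mesenchyme genes were higher at 5 (29.4%) and lower at 7 (41.2%) of 17, with a median of -0.10. Beside FN1 and SPARC, the list held COL5A1, a fibrillar collagen chain, which was above every other line at 3.41 ± 0.11 (SD, n = 6 arrays) against -1.05 ± 0.49 (SD, n = 5 lines).

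Among genes of the RB pathway, 11 of 24 were higher (45.8%) and 4 lower (16.7%), with 4 above every other line (1 with either other scaling) and a median of 0.18, close to that of all genes. With the values as deposited 6 were higher and 5 lower. CDKN2A, the locus of the INK4A and ARF inhibitors, which melanomas often lose, read 4.22, 4.13 and 4.18 in the HMV-I C-ions controls and 4.02, 3.97 and 4.10 in the HMV-I X-rays controls. On the other arrays it ran from -1.14 to 1.95, with line means of 1.80 in 92-1 and 0.93 in HMV-II and -0.35 to -0.90 in MeWo, Colo679 and C32TG. The gap was 14.7-fold at the smaller difference, 3.88 ± 0.08 (SE), and did not pass with 1 value per line (adjusted p = 0.236 and 0.195).

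MCM2, a subunit of the replicative helicase, CCNE1, cyclin E1, and CDK6, a kinase that INK4 proteins inhibit, were above every other line, with differences from the mean of the lines of 1.12, 1.01 and 1.01 at the smaller. The nearest lines by their means were 92-1 at MCM2 (6.81 in HMV-I against 6.01), MeWo at CCNE1 (4.61 in HMV-I against 4.22) and C32TG at CDK6 (2.10 in HMV-I against 1.29). MeWo was closest at CCNE1 in the C-ions controls, at 4.46 to 4.58 against 4.67 to 4.74 in HMV-I. An HMV-I X-rays array had no CCNE1 value. Genes of G2 phase and mitosis were higher at 5 (21.7%) and lower at 3 (13%) of 23, with a median of 0.29 that turned to -0.06 with the values as deposited. CENPA, the centromeric histone, was the 1 gene of the list above every other line, beside 5.98% of all genes. It read 4.48 in HMV-I against 3.14 in MeWo to 3.72 in 92-1, and 0 genes of the list met that rule with either other scaling. The mean level of this list was 4.12 to 5.05 over the HMV-I arrays, against 3.91 to 4.77 on the other arrays, a wide range within HMV-I. BUB1B, a kinase of the spindle checkpoint, read 2.59, 2.68 and 2.53 in the HMV-I C-ions controls but 0.19, 0.70 and 0.49 in the HMV-I X-rays controls, and its difference was 1.32 in the first set and -0.53 in the second.

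Of 24 p53 targets tested, 6 were higher (25%) and 8 lower (33.3%), beside 35.4% and 22.4% of all genes. Of the list, 1 lay above and 3 below every other line, beside 5.98% and 4.69% of all genes. The median of 0.16 turned to -0.05 with median centring. TP53INP1, a stress-induced nuclear protein, was dim in HMV-I at -1.04 ± 0.18 (SD, n = 6 arrays), against line means of 0.91 in MeWo to 3.28 in HMV-II. ZMAT3, a zinc finger protein, and SPATA18, a mitochondrial quality control protein, were also below every other line, with differences from the mean of the lines of -2.33 and -1.15 at the smaller. TP53I3, an oxidoreductase, was above every other line, at 3.84 against line means of 1.28 to 2.89. None of the 24 passed with 1 value per line.

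Antigen presentation genes were lower at 10 (55.6%, beside 22.4% of all genes) and higher at 4 (22.2%, beside 35.4%) of 18, with a median of -0.74 (-0.85 with median centring and -1.0 as deposited). The immunoproteasome subunits PSMB8 and PSMB9 averaged 1.76 ± 0.32 and -0.72 ± 0.28 (SD, n = 6 arrays) in HMV-I, against line means of 3.91 to 5.81 and 0.05 to 4.30. NLRC5, the activator of class I genes, moved the other way, at 3.46 ± 0.12 (SD, n = 6 arrays) in HMV-I against 0.64 ± 0.29 (SD, n = 5 lines), and passed with 1 value per line (adjusted p = 0.0185 and 0.0278). B2M, the light chain of class I molecules, averaged 7.58 in HMV-I against 7.11 in C32TG, 6.48 in MeWo, 6.38 in 92-1, 4.56 in Colo679 and -0.77 in HMV-II, and its difference from the mean of the others was 2.68 and 2.98. TAP1, the peptide transporter, was above every other line, at 3.89 against line means of 1.45 in 92-1 to 3.62 in C32TG. Of the list, 3 genes lay above every other line, and 1 did so with either other scaling.

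Interferon-stimulated genes were lower at 10 (55.6%) and higher at 4 (22.2%) of 18, with a median of -0.67. IRF7, an interferon regulatory factor, averaged -0.26 ± 0.10 (SD over 5 measured arrays) in HMV-I against 2.93 ± 0.89 (SD, n = 5 lines), and IFIT3 and IFIT1, interferon-induced antiviral proteins, were below every other line too, with differences from the mean of the lines of -2.16 and -1.10 at the smaller. BST2, described above, is a member of the same list and lay far above. The genes of MAPK output and feedback were lower at 10 (62.5%) and higher at 5 (31.2%) of 16, with a median of -0.68. DUSP6 and DUSP4, phosphatases that dampen ERK, were below every other line, at 2.81 against line means of 3.03 to 6.03 for DUSP6 and 2.16 against 2.71 to 4.34 for DUSP4. DUSP5, a nuclear phosphatase of ERK, was higher in HMV-I, by 2.77 and 1.92, at 4.80 ± 0.17 (SD, n = 6 arrays) against 5.04 in Colo679 and 1.11 to 2.76 in the rest.

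HOX genes, which keep a cell's position along the body axis, were higher at 3 (16.7%, beside 35.4% of all genes) and lower at 8 (44.4%, beside 22.4%) of 18, with a median of -0.12. HOXC13 and HOXC10 were above every other line, at 3.13 ± 0.10 and 3.80 ± 0.06 (SD, n = 6 arrays) in HMV-I, against 1.42 ± 0.21 and 2.52 ± 0.44 (SD, n = 5 lines). HOXD13, HOXD3 and HOXD1 were dim in HMV-I at -0.83, -0.72 and -1.15, and each lay below every other line, HOXD13 with line means of 1.51 to 2.46 elsewhere. HOXD13 passed with 1 value per line (adjusted p = 0.0471 and 0.0201).

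Cancer-testis antigens were higher at 6 (54.5%) and lower at 3 (27.3%) of 11, with a median of 0.29. MAGEA1 read 5.15, 4.88 and 5.19 in the HMV-I C-ions controls and 4.94, 4.80 and 4.80 in the HMV-I X-rays controls, against -0.73 to 0.22 elsewhere, and passed with 1 value per line (adjusted p = 0.000529 and 0.000429). MAGEA12 averaged 4.95 in HMV-I, and C32TG and Colo679 came near with 4.51 and 3.82. Among NRF2 targets and glutathione enzymes 7 were higher (46.7%) and 3 lower (20%) of 15, with a median of 0.13 that turned to -0.11 as deposited. AKR1C3, an aldo-keto reductase, GPX4, the peroxidase that repairs lipid peroxides, and TXNRD1, thioredoxin reductase, were above every other line, with differences from the mean of the lines of 2.90, 1.29 and 1.09 at the smaller. C32TG was nearest at the first pair, with AKR1C3 at 3.54 in HMV-I against 2.51 and GPX4 at 5.33 in HMV-I against 4.63. At AKR1C3 the arrays of these lines overlapped in the X-rays controls, at 2.99 to 3.27 in HMV-I and 2.71 to 3.03 in C32TG. In the C-ions controls they read 3.88 to 4.08 and 2.07 to 2.17. With either other scaling, 1 gene of the list lay above every other line. Ribosomal protein genes, taken as a level check, were higher at 5 and lower at 0 of 15 with a median of 0.15, but higher at 1 and lower at 5 with median centring, so their direction turned with the scaling.

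**Figure D5:**
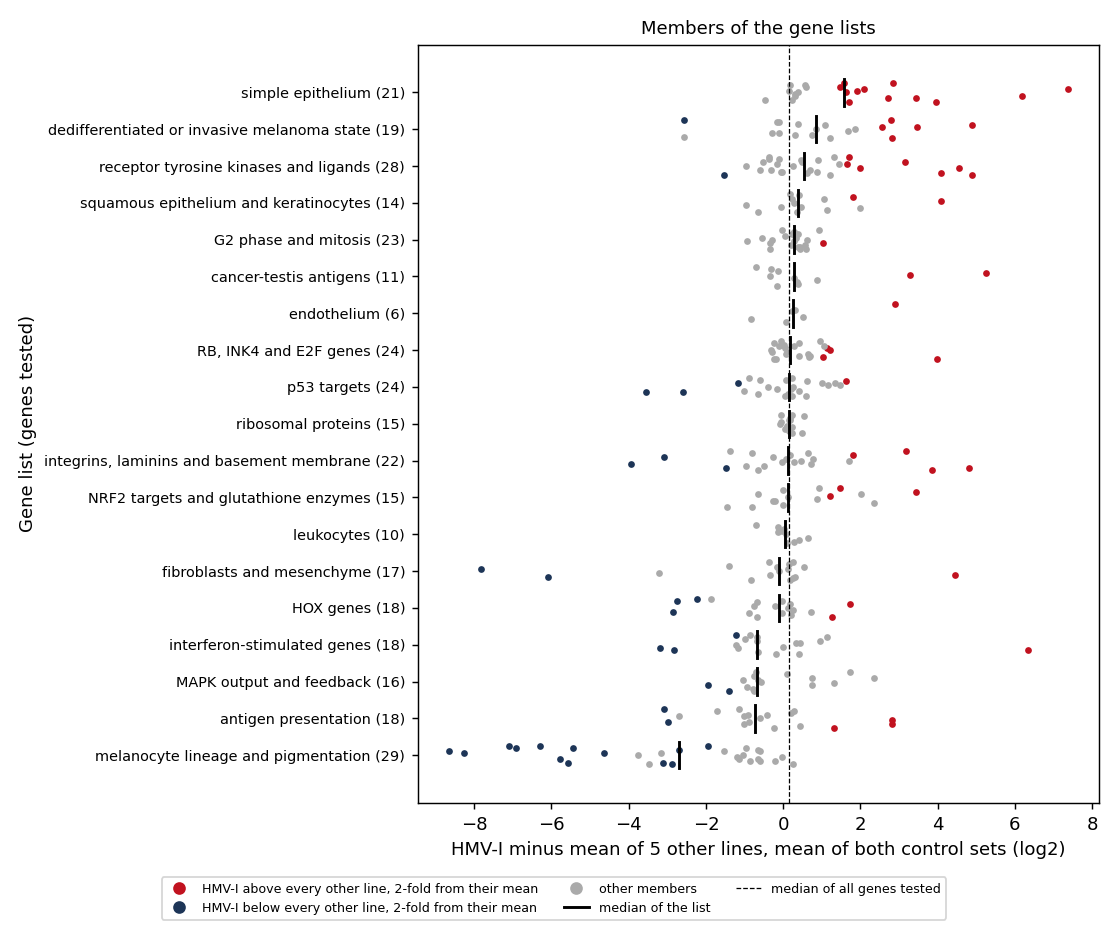
Each point is 1 tested gene of a list, placed by its mean difference between HMV-I and the other 5 lines over both control sets (log2), red where HMV-I was above and blue where it was below every other line by at least 2-fold from their mean. Black bars give list medians and the dashed line the median of all genes (0.15), and the melanocyte list at -2.70 and the simple-epithelium list at 1.57 are the farthest from it.

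The HMV-I control sets were less alike than those of most lines. The correlation across probes between the mean of the C-ions controls and the mean of the X-rays controls was 0.983 in HMV-I, against 0.961 in MeWo and 0.989 to 0.993 in the other lines. The size of the HMV-I difference itself differed between the sets at 6286 of 14834 genes (42.4%, limma interaction contrast, adjusted p under 0.05).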

How the data were processed

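Total RNA of each line and condition was labelled with biotin and read on single-colour CodeLink arrays, per the labels. The deposited table holds 1 spot intensity per probe and array, relative to the array median, on a linear scale. The values as deposited are thus already scaled, and median centring scales them again. The software behind the deposited intensities is not given in the sources used here. As deposited, array medians ran from 0.03 to 0.34 on the log2 scale. Intensities were transformed to log2 and quantile-normalized over all 108 arrays. Probes were kept when each of the 12 unirradiated groups had at least 2 of 3 values and the mean of at least 1 line lay above the 40th percentile of the line means, which left 36651 of 54359. Of 8776 probes left out for missing values, 445 were read above the threshold on all 6 HMV-I arrays. Replicate arrays correlated at r = 0.987 to 0.998, and no arrays were identical.

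The annotation named 23472 probes with 1 symbol, 23434 of them matched to RefSeq by Entrez identifier, 905 with several and left 29982 unlisted. Where several kept probes named a gene (2971 genes), the brightest on average stands for it.

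limma (version 3.58.1, R 4.3.3) was fitted to the 36 unirradiated arrays in 12 groups, with a variance trend, two-sided tests and p-values adjusted by Benjamini-Hochberg over the 36651 probes and called at 0.05. A second fit used 1 mean per line and leaves 4 residual degrees of freedom. Both fits were run on simulated data with changes far smaller than the widest gaps above. The fit to arrays, simulated without any spread between lines, recovered the changes put in. The fit with 1 value per line, simulated with the measured spread of the lines, recovered none of them. A gene that misses the line fit is therefore not shown to be alike. The settings differed, so the outcomes do not compare the fits, and changes as wide as the widest gaps were not simulated. Alternatives were other scalings, filters and variance models, leaving out arrays or lines, other probes of a gene, and the array number as a block. Named genes were the 15 highest and 15 lowest of those beyond every other line in both sets, by the smaller difference, and members of 19 lists (455 genes, with some on more than one list). The members and lists were chosen with earlier results of these data known.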

Additional observations from a re-analysis of the deposited data

Results flagged for a closer look

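The size of the HMV-I difference was tested between the control sets by an interaction contrast (limma, Benjamini-Hochberg over all probes), and 56 of the 113 genes examined by name passed, beside 42.4% of all genes tested. The values given in brackets are the difference in the C-ions controls minus that in the X-rays controls, on the log2 scale, and no cause of them was tested. In 2 genes the sets had opposite signs, which leaves them out of the shared calls: the checkpoint kinase BUB1B (1.85) and the receptor KIT (-0.66).

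Among genes higher in HMV-I, 19 had the wider gap in the X-rays controls. These were growth factors and cytokines, FGF2 (-1.40), IL6 (-1.14), NRG1 (-0.94), VEGFA (-0.58) and WNT5A (-0.36), epithelial genes, ELF3 (-0.91), PKP3 (-0.79) and EPCAM (-0.42), and genes among the widest gaps, ASS1 (-1.31), S100P (-0.99), FOXC2 (-0.78), TCIM (-0.62), NID2 (-0.59) and C4BPB (-0.46). The others were TP53I3 (-0.78), ESAM (-0.47), EGFR (-0.44), CDK6 (-0.40) and B2M (-0.30). The wider gap lay in the C-ions controls at 13 genes: the keratins KRT19 (1.05), KRT8 (0.61) and KRT18 (0.49), the epithelial genes SFN (0.64), DSP (0.58), ITGB4 (0.50), AP1M2 (0.34) and ESRP2 (0.33), and AKR1C3 (1.07), PLAUR (0.61), GDA (0.51), FOLR1 (0.50) and AXL (0.40). The simple-epithelium genes thus did not share one set with the wider gap.

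Among genes lower in HMV-I, 14 had the wider gap in the C-ions controls: the melanocyte genes SOX10 (-1.03), GPNMB (-0.77), SLC45A2 (-0.38), PMEL (-0.33) and EDNRB (-0.26), the p53 targets ZMAT3 (-0.54) and TP53INP1 (-0.49), HOXD3 (-0.39) and HOXD1 (-0.38), the matrix genes TNC (-0.66) and LAMA4 (-0.62), and PSMB8 (-0.73), CEP15 (-0.26) and RRAGD (-0.25). The wider gap lay in the X-rays controls at 8 genes: IFIT3 (1.34), ITGA6 (0.60), HBEGF (0.59), DUSP4 (0.47), LAMA1 (0.47), MLANA (0.32), ESRP1 (0.29) and CTHRC1 (0.24).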

How the results depend on the processing

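Counts here are probes. The calls shared by both control sets numbered 18837 (65.7% higher in HMV-I), 17244 with median centring (54.2% higher) and 16019 with the values as deposited (35% higher), and 3316 of them reached 2-fold in both sets (1703 higher and 1613 lower). The median difference over probes was 0.14 and 0.18 in the C-ions and X-rays controls, 0.09 and 0.05 with median centring and -0.02 and -0.13 as deposited. Leaving out the arrays of one number gave 15340 to 18113 shared calls, 21515 to 24304 in the C-ions controls, 22810 to 25774 in the X-rays controls, 2545 to 2660 beyond every other line and 288 to 311 with 1 value per line. The last count was 307, moved to 197 with probes valued on every unirradiated array, and ran from 194 (without Colo679) to 310 when each other line was left out. Same-numbered arrays of different groups were slightly more alike than differently numbered ones. The median correlation, after group means were removed, was 0.05 against -0.01 in the C-ions controls and 0.03 against -0.03 in the X-rays controls. The main fit did not use the array number. With the replicate block the shared calls numbered 19153 and those beyond every other line 2601. Lists were recounted under other scalings after the data were seen.

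Of the named genes, GAPDHS lost its call with median centring, without replicate 2 and without 92-1 or MeWo, and its sets had opposite signs as deposited (smaller shared difference 0). SOX10 lost its call without replicate 3 and without C32TG, and TFAP2A gained one with median centring, as deposited and without Colo679. Other probes had the opposite sign for FMN1 (0.13) and LEF1 (0.45) and were not called for EGFR, ESRP2 and a further FMN1 probe. The cause of these changes was not tested. Spot background is not given in the files, which limits what can be said of dim levels.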
